A study of Mus musculus with 2 samples.

Results

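The genes described here encode the machinery of oxidative phosphorylation and were chosen by symbol alone: every gene whose name starts with Nduf, Uqcr, Atp5, Cox4 to Cox8, mt-Nd, mt-Co, mt-Cytb or mt-Atp, together with Sdha, Sdhb, Sdhc and Sdhd. The rule took 107 of the 32285 genes in the count tables. Of these, 94 are nuclear genes, 86 for subunits and 8 for assembly factors of complex I (Ndufaf1 to Ndufaf8), and 13 are the protein-coding genes of the mitochondrial genome. By complex, the 94 nuclear members were 37 subunits and 8 assembly factors of complex I, 4 subunits of complex II, 8 of complex III, 20 of complex IV and 17 of complex V. Cox7a2l was counted with the subunits of complex IV by its name.

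Oxidative phosphorylation is carried out in the inner mitochondrial membrane, where complexes I to IV pass electrons from nutrients to oxygen. Complexes I, III and IV also pump protons, and complex V, the ATP synthase, uses the proton gradient to make ATP. Complexes I, III, IV and V are built from subunits of both genomes, whereas complex II is encoded in the nucleus alone. Several subunits of complex IV and the c subunit of complex V are encoded by more than 1 nuclear gene, and some of these isoforms are known for their use in muscle, testis or low oxygen. The brain is among the organs that depend most on this pathway.

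The data were 2 10x Genomics single-cell RNA libraries, replicates 1 and 2 of 1 condition, from dissociated striatum of untreated mice aged 8 to 10 weeks, which the labels give as strain C57/Bl6J and as a glia-enriched preparation, while the protocol in the labels names C57BL/6NTac. Library 1 held 6978 barcodes with 44597660 UMIs (transcript molecules, counted by unique molecular identifiers) and library 2 held 5437 barcodes with 37982720 UMIs. After a minimum of 300 detected genes and removal of 96 and 159 predicted doublets, 12007 cells were analysed, 6802 and 5205. The labels do not say whether the libraries came from separate mice, so a spread between libraries may be technical.

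Cells were clustered without the 107 members, so that these genes did not decide the classes, and clusters were named from marker genes as astrocyte-like (2279 cells), oligodendrocyte-like (2220), microglia-like (2140), neuroblast-like (1668, which also passed the markers of dividing progenitors), endothelial-like (1408), OPC-like (oligodendrocyte precursors, 824), neuron-like (648), mural-like (pericytes and smooth muscle of vessel walls, 553), macrophage-like (170) and erythroid-like (97). At a finer clustering (resolution 0.32) the neuroblast-like class held 476 neuroblast-like, 451 progenitor-like and 151 ependymal-like cells, the last led by Ccdc153 and Tmem212, and 590 cells that were left unnamed. The mural-like class likewise held 56 unnamed cells led by Dcn, Igfbp2 and Igf2. In the OPC-like class 183 cells were unnamed, and in the oligodendrocyte-like class 87. Every class but the erythroid-like one had at least 20 cells in each library, and these 9 classes were compared. The libraries shared 9 barcodes, 8 of them among the analysed cells. Median UMI totals per barcode were 3852 and 5375, and 5.28% and 6.84% of UMIs came from the 13 mitochondrial genes. Library 2 had the higher mitochondrial share in 9 of 9 classes.

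As a share of UMIs, the summed level of the nuclear members split the classes into a high and a low group. As a percentage of the UMIs on nuclear genes, with mean ± SD over 2 libraries, it was 3.03 ± 0.036 in astrocyte-like, 3.03 ± 0.050 in mural-like, 2.96 ± 0.026 in neuroblast-like, 2.91 ± 0.107 in neuron-like and 2.88 ± 0.030 in OPC-like cells. These 5 classes lay close together, and most neighbours in this order differed by less than the spread between libraries. It was 2.2 ± 0.041 in oligodendrocyte-like, 2.2 ± 0.111 in endothelial-like, 1.99 ± 0.059 in macrophage-like and 1.5 ± 0.064 in microglia-like cells. In no library did 1 of these 4 classes reach the lowest value of the first 5, and microglia-like cells were the lowest of the 9 in both libraries. The gap did not hold for all cells of a class. At the finer clustering 1677 astrocyte-like cells had 2.64% and 2.58%, and 599 deeper ones 3.37% and 3.20%. The 590 unnamed cells of the neuroblast-like class had 2.25% and 2.05%, and its named clusters 2.81% to 3.14%. In the mural-like class 64 cells had 2.28% and 2.46%, and 116 cells 3.87% and 3.64%, with the other cells between. Erythroid-like cells, which include maturing red cells that lose their mitochondria, stood at 0.347 ± 0.085, with 86 and 11 cells. These shares depend on the other UMIs of a class and were not scaled between classes. In the tests below neuron-like, OPC-like and oligodendrocyte-like cells changed direction with the scaling, so their place in the high or low group holds for this measure only.

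The mitochondrial members followed another order. Summed over each class, their share of all UMIs was 10.2% and 12.6% in neuron-like cells, the highest in each library. It was 7.73% and 9.09% in astrocyte-like cells, the next in each, but differed widely within that class (below). Mural-like cells had 5.94% and 7.83%, and oligodendrocyte-like cells 6.10% and 7.43%, so that these classes changed places between libraries. Neuroblast-like (4.60% and 6.26%), endothelial-like (4.37% and 5.16%), macrophage-like (3.86% and 5.10%), OPC-like (3.76% and 4.77%) and microglia-like cells (3.51% and 4.67%) came in the same order in both libraries. OPC-like cells thus paired a nuclear level near that of neuron-like cells with one of the lowest mitochondrial shares. This pairing did not hold throughout the class. At the finer clustering 194 OPC-like cells (median total 1881.5 UMIs) had nuclear levels of 1.70% and 1.64% and mitochondrial shares of 9.67% and 11.9%. The 447 others named OPC-like had nuclear levels of 2.90% and 2.91% and mitochondrial shares of 3.47% and 4.31%. Over the 9 classes Pearson's r between the nuclear and mitochondrial levels was 0.56 and 0.51. Between the log2 of the median UMI total of a class and its mitochondrial share r was -0.55 and -0.49. Between the log2 of the median UMI total and the nuclear level r was -0.55 and -0.38. These are descriptions over 9 points that share a library.

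**Figure D1:**
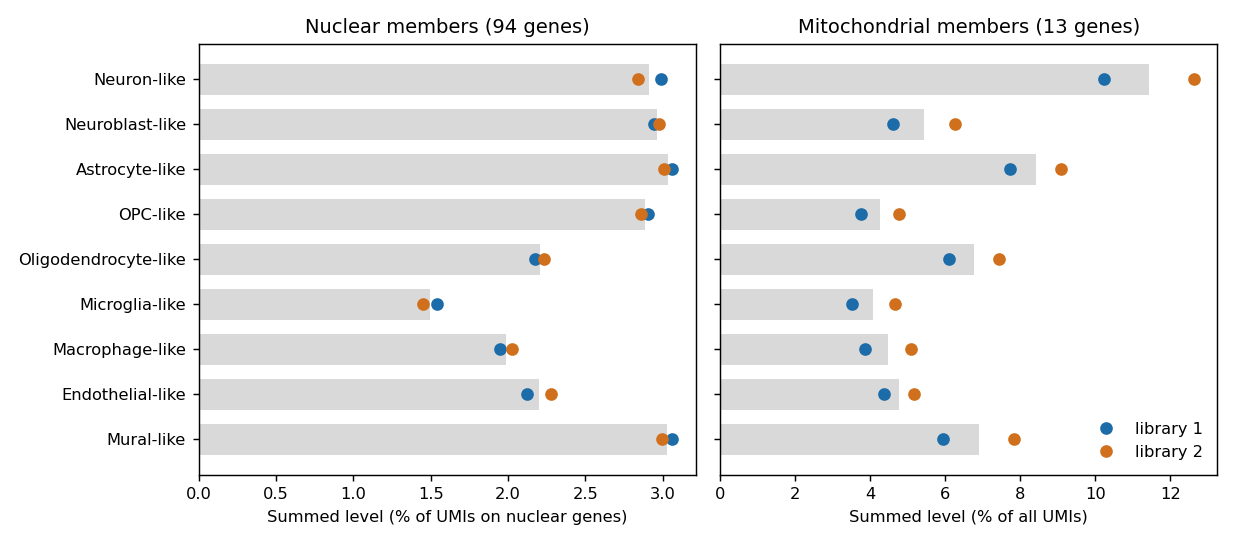
Summed levels of the 94 nuclear members (left, % of UMIs on nuclear genes) and the 13 mitochondrial members (right, % of all UMIs) by class. Grey bars are the mean of 2 libraries and points the libraries. Microglia-like cells are lowest on the left at 1.5%, and neuron-like cells are highest on the right at 10.2% and 12.6%.

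The mitochondrial share varied more within some classes than between them. Oligodendrocyte-like cells formed a deep cluster of 1498 cells, with 4.65% and 6.41% mitochondrial UMIs, and a shallow cluster of 722 cells, with 19.3% and 27.1%. Of 8 oligodendrocyte markers, the shallow cluster had 5 raised and 2 among its 50 leading genes, and the deep one had 8 and 8. The shallow cluster was led by Hapln2, Vmp1 and Ptprd, so its name rests on fewer markers. No such cluster was named oligodendrocyte-like when cells were clustered anew with doublets kept. Median UMI totals were 16452 and 13634.5 in the deep cluster against 2475 and 2558 in the shallow one, and the nuclear level was 2.25% and 2.27% against 1.32% and 1.31%. Microglia-like cells also had a shallow cluster (498 cells, median totals 1182 and 1311.5), in which both levels were higher than in the deep one: 7.24% and 8.47% against 3.28% and 4.45% mitochondrial, and 2.05% and 1.89% against 1.51% and 1.43% nuclear. At the finer clustering 1677 astrocyte-like cells (median total 1505 UMIs) had 11.0% and 13.7% mitochondrial UMIs, above the neuron-like class in both libraries. A deeper cluster of 599 astrocyte-like cells (8284 UMIs) had 5.20% and 6.89%. Of the endothelial-like cells, 530 had 8.42% and 8.54%, and 877 deeper ones 3.79% and 4.91%. The 590 unnamed cells of the neuroblast-like class had higher shares than each of its named clusters in both libraries. In neuron-like cells, 15.5% and 35.2% of the cells had at least 20% mitochondrial UMIs. Without such cells the neuron-like mitochondrial share was 7.81% and 7.33%, against 6.78% and 7.52% in astrocyte-like cells, and neuron-like cells were no longer the higher of the pair in library 2. The part of depth in these shares was not tested.

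**Figure D2:**
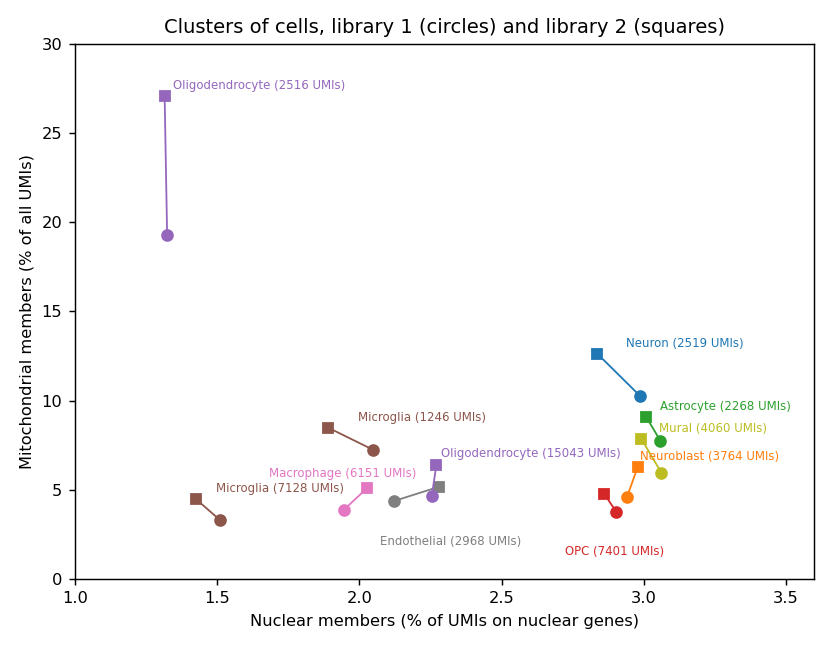
Each cluster of cells by its nuclear level (x axis, % of UMIs on nuclear genes) and its mitochondrial level (y axis, % of all UMIs), with a line joining library 1 (circle) and library 2 (square). Labels give the class and the mean of the 2 median UMI totals, and the shallow oligodendrocyte-like cluster stands apart at 19.3% and 27.1%.

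Cell by cell, after each cell was thinned to 1000 UMIs, the correlation between the nuclear and mitochondrial levels had different signs by class and, in macrophage-like cells, by library (0.21 and -0.25). Pearson's r was 0.30 and 0.32 in neuron-like cells (272 and 208 cells), so that cells with more mitochondrial UMIs also had more nuclear ones. In oligodendrocyte-like cells it was -0.45 and -0.45 (1075 and 1085 cells). In OPC-like cells it was -0.32 and -0.28, in astrocyte-like cells -0.21 and -0.19, 0.12 and 0.14 in microglia-like cells. Endothelial-like cells had r of 0.02 and 0.00, neuroblast-like cells -0.33 and -0.17, and mural-like cells -0.20 and -0.14. These are descriptions, and both levels of a cell come from the same barcode. Left out for totals under 1000 UMIs were 115 and 53 neuron-like and 51 and 9 oligodendrocyte-like cells.

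The make-up of the nuclear transcripts by complex changed little from class to class. Complex I subunits took 31.2% to 36.4% of the nuclear members' UMIs over the 9 classes and 2 libraries, complex IV 25.2% to 32.3%, complex V 24.3% to 29.0% and complex III 8.43% to 10.3%. Complex II had a wider relative range, from 1.37% and 1.57% in neuron-like cells, the lowest in each library, to 2.79% and 2.82% in microglia-like cells, the highest in each. The 8 assembly factors held 1.06% to 1.69%.

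Of the 94 nuclear members, 91 passed the filter on low counts and entered the test, together with all 13 mitochondrial members. The exceptions were Cox8c, with no UMI in any of the 9 classes, and Cox8b and Cox7b2, each at most 4.58 CPM (UMIs per 1000000 UMIs on nuclear genes, the unit of all levels of single nuclear members below). All 3 are isoforms of complex IV subunits. Each class was compared with the equal-weight mean, on the log2 scale, of the other 8 in edgeR's quasi-likelihood test (n = 2 libraries), over 15534 genes, and a gene was called at a Benjamini-Hochberg adjusted p under 0.05. The classes differ in composition, so the calls depended on the scaling between them. Counts are given with TMM factors, which ranged from 0.72 in oligodendrocyte-like to 1.32 in OPC-like cells, and then with library sizes alone, and genes with the same call under 4 scalings (these, DESeq2 size factors and TMM without the mitochondrial genes) are named separately. Shares of all genes called were counted with TMM factors and with library sizes alone only. Counts under other settings, or under all 4 scalings, therefore have no background. Called in either direction with TMM factors were 53.1% of all genes in astrocyte-like, 44.7% in endothelial-like, 32% in macrophage-like, 55.1% in microglia-like, 39.4% in mural-like, 57.7% in neuroblast-like, 55.6% in neuron-like, 47.6% in OPC-like and 58.6% in oligodendrocyte-like cells, and 50.3% between neuron-like and astrocyte-like cells. With library sizes alone the median of all genes moved from -0.17 to 0.17 in neuron-like, from -0.01 to 0.38 in OPC-like, from 0.03 to -0.47 in oligodendrocyte-like, from 0.03 to -0.37 in microglia-like, from 0.02 to 0.22 in neuroblast-like, from -0.29 to -0.45 in macrophage-like and from -0.10 to 0.02 in mural-like cells.

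In astrocyte-like cells, 52 nuclear members were higher and 4 lower, beside 26.7% and 26.4% of all genes, with a median log2 fold change of 0.28 against -0.10 over all genes. With library sizes alone they were 58 and 3, beside 27.9% and 24.8%. Under all 4 scalings 52 were called higher, from each of complexes I to V, and 1 lower. In mural-like cells 32 were higher and 3 lower, beside 22.3% and 17.1% of all genes (44 and 2 with library sizes alone, beside 25.4% and 13%). In neuroblast-like cells 22 were higher and 6 lower, beside 31.6% and 26.1% of all genes, so that the higher share lay near the background (47 and 1 with library sizes alone, beside 38.1% and 20.8%).

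Microglia-like cells had 8 higher and 54 lower, beside 33.5% and 21.6% of all genes, and 2 and 81 with library sizes alone, beside 21.6% and 34.4%. All 54 were lower under every one of the 4 scalings, 24 of them subunits of complex I, 12 of complex IV and 10 of complex V. Complex II went the other way with TMM factors, with Sdha, Sdhc and Sdhd higher (log2 0.24 to 0.34), but all 3 had log2 values below 0 with library sizes alone (-0.17, -0.13 and -0.06). Macrophage-like cells had 3 higher and 31 lower, beside 17.5% and 14.5% of all genes (3 and 47 with library sizes alone, beside 15.8% and 20.2%), and endothelial-like cells 11 higher and 29 lower, beside 25.8% and 18.8% (10 and 34, beside 25.2% and 19.6%).

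The remaining 3 classes changed direction with the scaling. Neuron-like cells had 10 nuclear members higher and 38 lower, beside 26.2% and 29.4% of all genes, but 35 higher and 15 lower with library sizes alone, beside 33.8% and 18.4%. OPC-like cells had 10 higher and 15 lower, beside 26.5% and 21.1%, but 59 and 2 with library sizes alone, beside 44.3% and 11.1%. Oligodendrocyte-like cells had 53 higher and 4 lower, beside 34.9% and 23.8%, but 10 and 38 with library sizes alone, beside 19.8% and 40%. No direction for the nuclear members as a whole is given for these classes. Under all 4 scalings, 10 members were higher and 15 lower in neuron-like cells, 10 and 2 in OPC-like cells and 10 and 4 in oligodendrocyte-like cells.

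**Figure D3:**
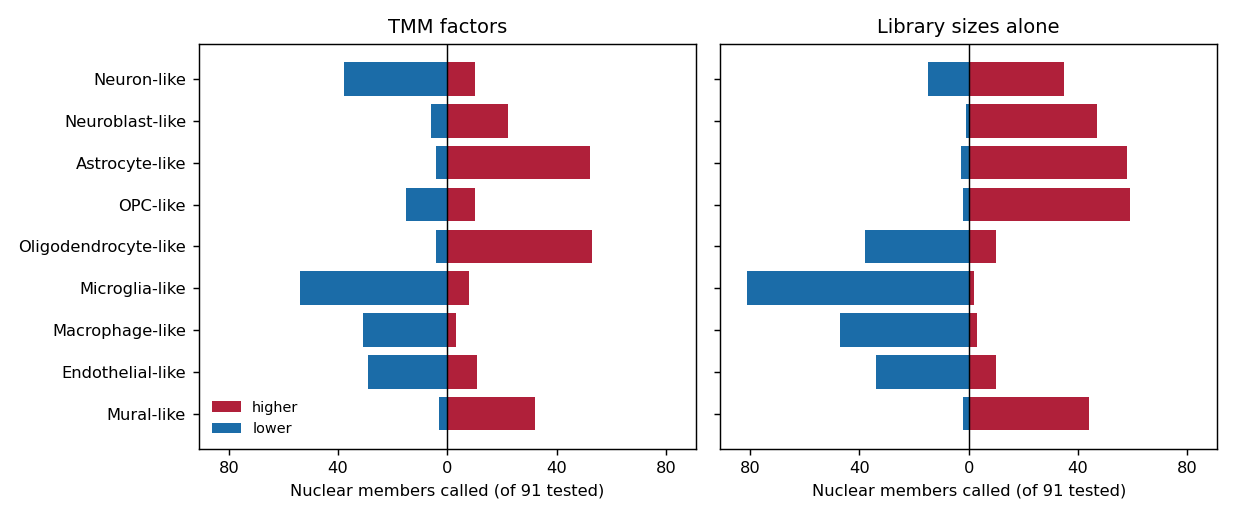
Number of the 91 tested nuclear members called higher (red, right) or lower (blue, left) in each class against the other 8 in edgeR, with TMM factors and with library sizes alone. The bars of neuron-like, OPC-like and oligodendrocyte-like cells change sides between the panels, whereas those of astrocyte-like and microglia-like cells do not.

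Up to 13 of the 13 mitochondrial members were called in 1 direction in a class. In astrocyte-like cells 12 of 13 were higher, the exception being mt-Nd1, and in neuron-like cells 12 of 13, the exception being mt-Nd6 (13 with library sizes alone). In OPC-like cells 13 of 13 were lower, with a median log2 fold change of -0.99 (-0.59 with library sizes alone). These 12, 12 and 13 genes were also called, in the same directions, with library sizes alone and in DESeq2, which added the remaining gene in astrocyte-like and neuron-like cells. In oligodendrocyte-like cells 12 were higher, but with library sizes alone 7 were higher and 1, mt-Nd5, was lower. In neuroblast-like cells 12 were lower (6 with library sizes alone), in macrophage-like cells 7 (10), in endothelial-like cells 5 with 1 higher (6 and 0), and in microglia-like cells 3 (12). In mural-like cells 3 were higher (6). With TMM factors 26.7% of all genes were higher in astrocyte-like, 26.2% in neuron-like and 34.9% in oligodendrocyte-like cells. Lower were 21.1% in OPC-like, 26.1% in neuroblast-like, 14.5% in macrophage-like and 18.8% in endothelial-like cells, where 25.8% were higher. In microglia-like cells 21.6% were lower and in mural-like cells 22.3% higher, so their counts of 3 of 13 lay near the background. The shares with library sizes alone are given above with the nuclear members. With cells of at least 20% mitochondrial UMIs left out, 5 of 13 stayed called higher in neuron-like cells, 11 in astrocyte-like and 11 in oligodendrocyte-like cells, and 13 lower in OPC-like cells.

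Within the mitochondrial genome, mt-Atp6, a complex V subunit in the proton path, took 19.2% to 23.3% of the mitochondrial UMIs, and the complex IV core subunits mt-Co1, mt-Co2 and mt-Co3 and the cytochrome b gene mt-Cytb each had medians of 14.2% to 16.3%. mt-Nd6, a complex I subunit and the single member on the other strand, took 0.035% to 0.124%. The share of mt-Nd1, a complex I subunit, ran from 3.63% to 7.49%. In neuron-like cells log2 fold changes were 1.09 ± 0.09 (SE, edgeR adjusted p = 2.4e-08) for mt-Nd1 and 0.93 ± 0.10 for mt-Nd5, against 0.53 ± 0.10 for mt-Co1 and 0.19 ± 0.16 for mt-Nd6, which was not called. In astrocyte-like cells mt-Nd6 had the largest value of the 13, 1.20 ± 0.12 (adjusted p = 3.1e-07), and mt-Nd1 the smallest, 0.11 ± 0.10. In the annotation, mt-Atp8 and mt-Atp6 overlap by 43 bases, mt-Nd4l and mt-Nd4 by 7, and mt-Atp6 and mt-Co3 by 1 on the same strand. Reads from these same-strand ends could not be assigned to 1 gene with certainty. The genes mt-Nd5 and mt-Nd6 overlap by 14 bases on opposite strands.

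The clearest class pattern among the nuclear members was an isoform change in mural-like cells. Ndufa4 encodes a subunit long listed under complex I and now placed in complex IV, and Ndufa4l2 encodes its paralog, known to be induced in low oxygen. Ndufa4l2 stood at 823 and 872 CPM in mural-like cells, at 16.9 and 18.0 in endothelial-like cells, and between 0.69 and 8.67 in the other 7 classes. It made up 60.9% and 63.6% of the UMIs of the pair in mural-like cells, and 0.074% to 2.64% in the 16 library values of the other 8 classes, so the groups were far from overlapping. The log2 fold change of Ndufa4l2 against the other classes was 7.82 ± 0.20 (SE, edgeR adjusted p = 7.3e-15). Ndufa4 itself was at 528 and 500 CPM in mural-like cells, with a log2 fold change of -0.48 ± 0.10 (adjusted p = 0.0013), lower under all 4 scalings.

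Cox4i2 was also highest in mural-like cells. Cox4i1 and Cox4i2 encode alternative forms of subunit 4 of complex IV, the second of which is known for its role in oxygen sensing. Cox4i2 was at 384 and 409 CPM in mural-like cells, 29.7 and 19.6 in astrocyte-like cells, 8.30 and 12.4 in endothelial-like cells and at most 6.46 elsewhere. It was 30.3% and 33.7% of the Cox4i UMIs in mural-like cells, against 0.040% to 2.89% in the other 8 classes, with the upper end in astrocyte-like cells (2.89% and 2.11%). Its log2 fold change was 6.65 ± 0.19 in mural-like (adjusted p = 3.5e-14) and 2.16 ± 0.29 in astrocyte-like cells (adjusted p = 7.0e-06), while Cox4i1 did not pass the test in either class. Thinned to 1000 UMIs, 47.1% and 50.5% of mural-like cells had a Ndufa4l2 UMI (61.0% and 71.6% unthinned) and 31.6% and 27.6% a Cox4i2 UMI (55.2% and 59.7% unthinned). In thinned microglia-like cells, taken as a class in which such UMIs were near the background, these shares were 0.098% and 0.31% for Ndufa4l2 and 0.098% and 0.10% for Cox4i2. Median UMI totals were 3747.5 and 4373 in mural-like and 6930 and 5504 in microglia-like cells, and thinning left out 47 and 33 mural-like and 98 and 56 microglia-like cells.

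**Figure D4:**
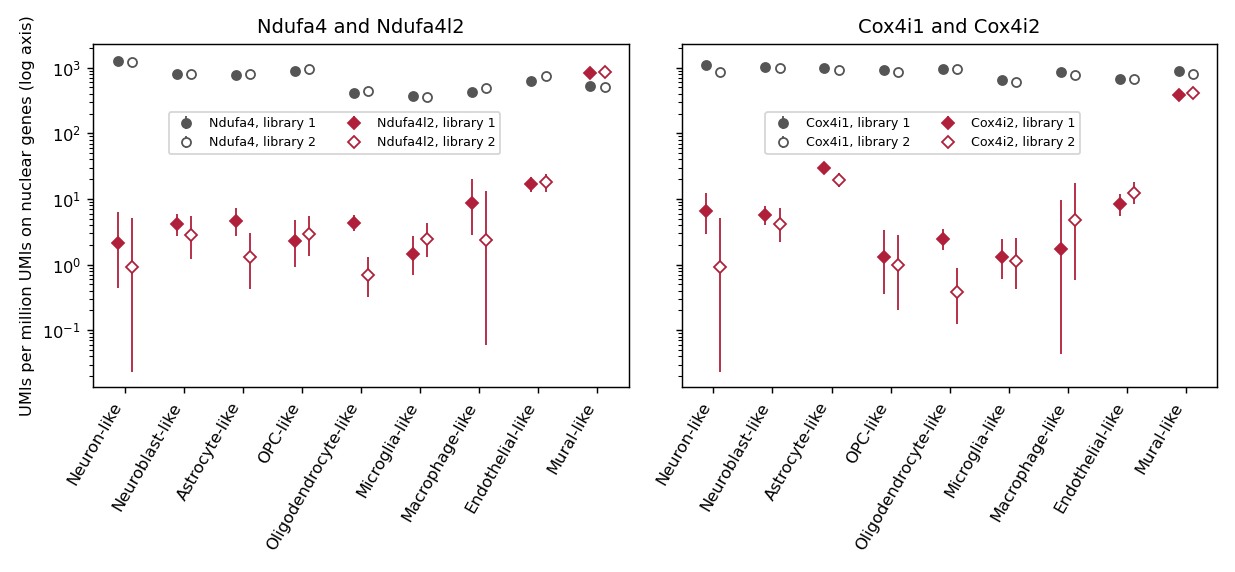
Levels of Ndufa4 and Ndufa4l2 (left) and of Cox4i1 and Cox4i2 (right) in each class, in CPM on a log axis, with library 1 filled, library 2 open and bars for the 95% Poisson interval, which covers counting error only. Ndufa4l2 reaches 823 and 872 and Cox4i2 384 and 409 in mural-like cells.

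At the finer clustering the mural-like cells separated into 3 named clusters that differed in these genes and the 56 unnamed cells. The first, led by Vtn, Kcnj8 and Abcc9, genes known from pericytes, had Ndufa4l2 at 1898 and 2039 CPM, Cox4i2 at 865 and 962, and Ndufa4 at 173 and 132 (185 and 132 cells). The second, led by Acta2, Tagln and Myh11, genes of smooth muscle contraction, had Ndufa4l2 at 367 and 496, Cox4i2 at 173 and 200, and Ndufa4 at 783 and 740 (61 and 55 cells). The third was led by Rgs5 and by Vtn, Kcnj8 and Abcc9, which also led the first, and it passed the endothelial markers too. Its levels, not its leading genes, lay between those of the first and second. Ndufa4l2 was at 625 and 682, Cox4i2 at 304 and 357 and Ndufa4 at 432 and 490 (29 and 35 cells). Median UMI totals of the 3 clusters were 2125, 9434.5 and 15161.5, and the part of depth was not tested. The 56 unnamed cells (35 and 21) had Ndufa4l2 from 1 and 9 UMIs and Cox4i2 from 3 and 0, with Ndufa4 at 938 and 565. In both libraries the order of the 3 named clusters was the same for Ndufa4l2 and for Cox4i2 and the reverse for Ndufa4.

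The genes outside the list whose log2 levels over the 18 class and library values were most like Ndufa4l2 were Ifitm1 (r = 0.97), Myl9 (0.97) and Abcc9 (0.97), and those most like Cox4i2 were Nr1h3 (0.97), Cped1 (0.95) and Rbpms2 (0.95). The correlation of Cox4i2 with Ndufa4l2 was 0.86. These points share libraries and rest largely on the mural-like values.

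Other minor isoforms of complex IV were low but patterned. Cox7a1, the heart and skeletal muscle form of subunit 7a, was at 15.5 and 8.96 CPM in mural-like cells and 8.78 and 7.57 in astrocyte-like cells, and its log2 fold changes were 2.35 ± 0.37 (adjusted p = 6.5e-05) and 1.73 ± 0.33 (adjusted p = 0.00029). Of the 27 and 13 Cox7a1 UMIs in mural-like cells, 12 and 4 were in the 56 unnamed cells. Cox6b2, known as the testis form of subunit 6b, was at 32.2 and 48.2 in mural-like and 22.0 and 30.6 in astrocyte-like cells (log2 2.10 ± 0.19 and 1.46 ± 0.17) and at 2.87 and 0.92 in neuron-like cells, from 4 and 1 UMIs. It held 5.82% and 8.61% of the Cox6b UMIs in mural-like cells and 4.08% and 5.41% in astrocyte-like cells, against 0.17% to 3.57% in the other 7 classes. Cox6a2, the heart and skeletal muscle form of subunit 6a, was found in neuron-like cells (29 and 7 UMIs, in 8 and 2 cells) and in microglia-like cells (42 and 55 UMIs, in 32 and 43 cells), and was called higher in both classes (adjusted p = 4.9e-05 and 5.9e-06). Macrophage-like and mural-like cells had no Cox6a2 UMI in either library, so no fold is given. Cox7a2l is known for a role in joining complexes III and IV into supercomplexes, which was not examined in these mice. It was at 334 and 292 in microglia-like and 395 and 404 in macrophage-like cells. Levels were 130 and 120 in astrocyte-like, 153 and 143 in OPC-like and 176 and 197 in neuron-like cells. Its log2 fold changes were 0.99 ± 0.09, 1.14 ± 0.10, -1.02 ± 0.10, -1.02 ± 0.10 and -0.73 ± 0.11 in this order, each called under all 4 scalings.

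**Figure D5:**
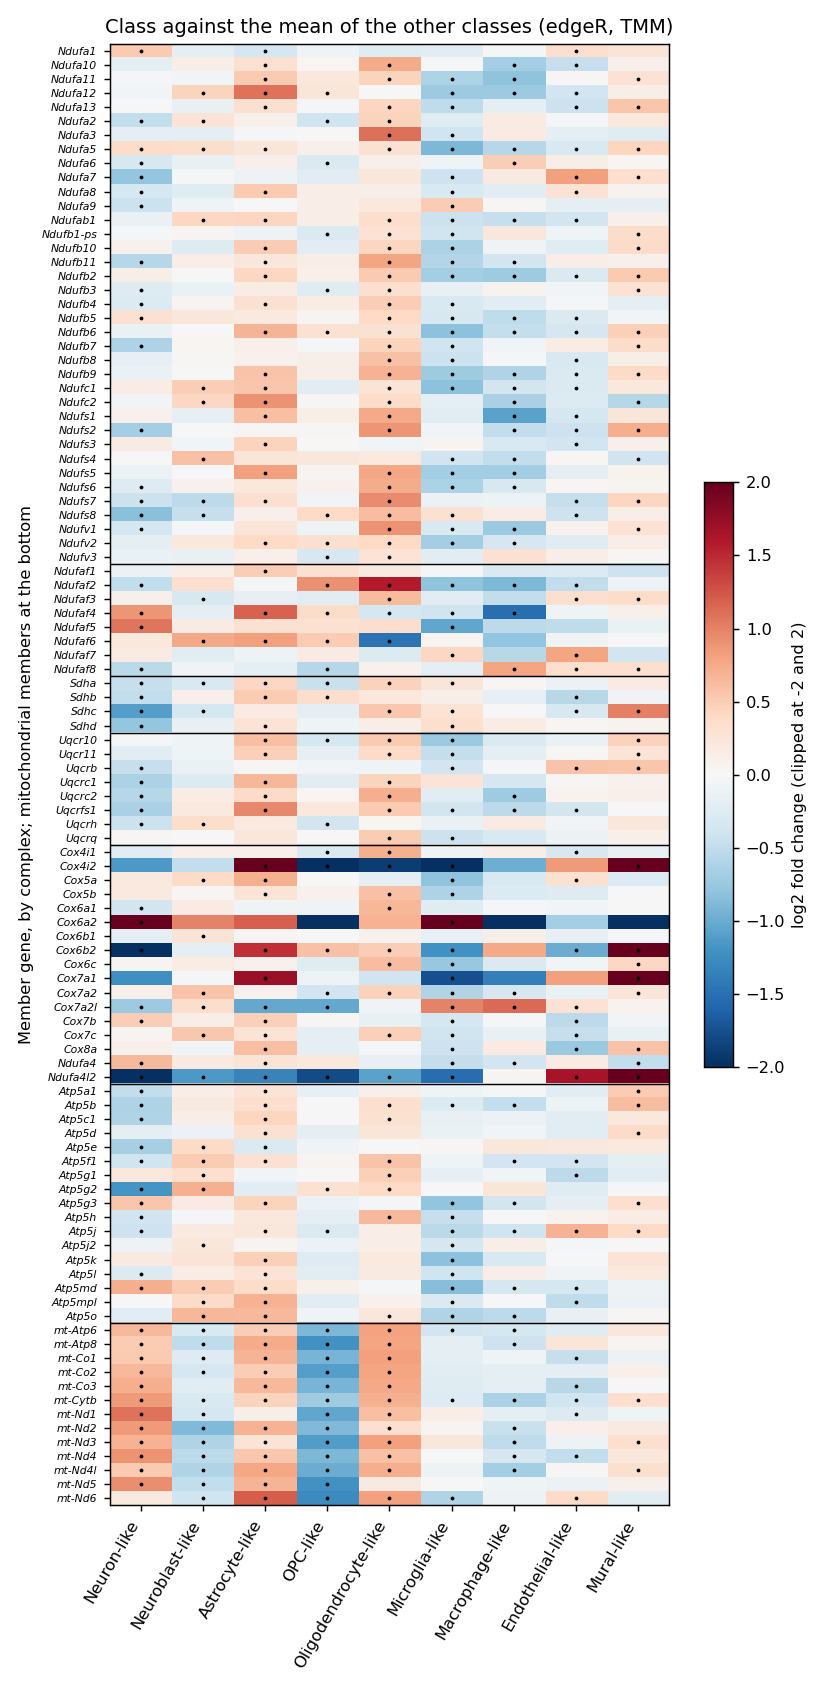
Log2 fold change (colour, clipped at -2 and 2) of the 91 nuclear and 13 mitochondrial members tested in each class against the mean of the other 8, with TMM factors. Lines separate complex I, its assembly factors and complexes II to V, with mitochondrial members at the bottom, and dots mark adjusted p under 0.05. Ndufa4l2 and Cox4i2 stand out in mural-like cells with 7.82 and 6.65, and the mitochondrial block is blue in OPC-like cells, with a median of -0.99.

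The 3 genes for the c subunit of complex V, the ring that turns with the proton flow, showed a change of another kind in neuron-like cells. Atp5g1, Atp5g2 and Atp5g3 encode the same mature protein behind different import signals. In neuron-like cells Atp5g2 gave 24.3% and 23.4% of the UMIs of the trio, against 38.3% to 55.6% in the other 8 classes, so the ranges did not overlap. Atp5g1 gave 37.7% and 37.1% (25.1% to 33.2% elsewhere) and Atp5g3 38.0% and 39.4% (16.6% to 34.6% elsewhere). The level of Atp5g2 was 264 and 283 CPM in neuron-like, 774 and 733 in neuroblast-like and 705 and 609 in OPC-like cells. Its log2 fold change was -1.18 ± 0.11 in neuron-like cells (adjusted p = 1.3e-07) and 0.72 ± 0.09 in neuroblast-like cells (adjusted p = 4.6e-06), whereas Atp5g3 was at 0.55 ± 0.09 in neuron-like cells (adjusted p = 7.7e-05), and all 3 calls held under the 4 scalings. With the neuroblast-like class cut down by the finer clustering, its Atp5g2 value was 0.29. Atp5g1 did not pass the test in neuron-like cells (0.21 ± 0.09, adjusted p = 0.068).

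The promoters of these 3 genes are shown because the genes share a product and differ in their class pattern. Each is the 300-base window from 250 bases before to 50 bases after the first start that RefSeq lists (GRCm38.p6), on the minus strand, at chr11:96075582-96075881 for Atp5g1, chr15:102670998-102671297 for Atp5g2 and chr2:73911277-73911576 for Atp5g3. Capitals mark matches, on either strand, to the motif of NRF1 (GCGCA and GCGC with any 1 base between them), a factor known from promoters of respiratory genes, and to ACGTG, the core of the hypoxia response element.
Atp5g1: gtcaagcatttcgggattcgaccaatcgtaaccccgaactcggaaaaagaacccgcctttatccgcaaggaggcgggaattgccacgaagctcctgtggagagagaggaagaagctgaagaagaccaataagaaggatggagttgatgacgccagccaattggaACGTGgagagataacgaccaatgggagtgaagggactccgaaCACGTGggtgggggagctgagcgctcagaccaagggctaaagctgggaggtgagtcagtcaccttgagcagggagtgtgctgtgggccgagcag
Atp5g2: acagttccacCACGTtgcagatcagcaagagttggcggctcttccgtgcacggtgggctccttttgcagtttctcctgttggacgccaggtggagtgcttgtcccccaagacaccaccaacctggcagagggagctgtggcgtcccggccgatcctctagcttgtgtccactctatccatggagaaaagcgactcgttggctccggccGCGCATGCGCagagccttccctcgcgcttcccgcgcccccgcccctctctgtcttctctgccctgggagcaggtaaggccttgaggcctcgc
Atp5g3: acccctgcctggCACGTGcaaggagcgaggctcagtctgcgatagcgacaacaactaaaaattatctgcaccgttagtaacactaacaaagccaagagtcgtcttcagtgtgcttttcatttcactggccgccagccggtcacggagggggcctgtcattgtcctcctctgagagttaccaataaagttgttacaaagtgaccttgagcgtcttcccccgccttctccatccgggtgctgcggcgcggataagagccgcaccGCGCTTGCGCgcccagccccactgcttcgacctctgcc
Atp5g2 and Atp5g3 each held 1 match to the NRF1 letters, 42 bases before and 12 bases after the start, and Atp5g1 held none. The letters ACGTG matched 3, 1 and 2 times, and where CACGTG reads the same on both strands the overlapping matches were counted on each. The ETS letters CCGGAAG and the YY1 letters AAGATGGCG were in none of the 3 windows.

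A promoter was listed for 75 of the 94 nuclear members. NRF1 letters were in 18 of these 75 (24.0%), against 4.78% of 27025 promoters of the same length, ETS letters in 18 (24.0%, against 9.12%), YY1 letters in 7 (9.33%, against 1.49%) and ACGTG in 17 (22.7%, against 19.7%). These shares describe letters in a fixed window. The background was every listed promoter of that length, members included. It was not matched for base composition or for how broadly genes are expressed, so the differences are not read as particular to these genes. The letters were searched on both strands. No promoter was listed for Cox4i1, Cox4i2 or Ndufa4l2.

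Complex II, the succinate dehydrogenase shared with the citric acid cycle, had its lowest share of the nuclear members' UMIs in neuron-like cells, as given above. With TMM factors all 4 genes were lower, by log2 values from -0.46 ± 0.11 for Sdha to -1.10 ± 0.13 for Sdhc (adjusted p = 1.8e-06), and Sdhc and Sdhd were lower under all 4 scalings, whereas Sdha and Sdhb were at -0.11 and -0.14 and not called with library sizes alone. Sdhc, a membrane anchor of the complex, stood at 59.6 and 57.8 CPM in neuron-like cells. In mural-like cells it stood at 188 and 167 CPM, and its log2 fold change there was 1.01 ± 0.10 (adjusted p = 3.0e-07). Against astrocyte-like cells directly, Sdha, Sdhb, Sdhc and Sdhd were lower in neuron-like cells by -0.77 ± 0.14, -0.88 ± 0.14, -1.12 ± 0.15 and -0.93 ± 0.15 (adjusted p from 1.3e-05 to 0.00015), under all 4 scalings.

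Neuron-like and astrocyte-like cells are often set against each other in accounts of brain energy use. In that comparison 5 nuclear members were higher in neuron-like cells and 51 lower, beside 23.3% and 27.0% of all genes, and with library sizes alone 12 and 29, beside 30.0% and 20.1%. Under all 4 scalings 5 were higher and 29 lower. Lower were Uqcrfs1, the Rieske iron-sulfur protein of complex III (137 and 125 CPM against 294 and 270, log2 -1.43 ± 0.13, adjusted p = 1.2e-07), and Uqcrc1, a core protein of complex III (-1.15 ± 0.17), besides Cox6b2, Cox4i2 and Cox7a1. Higher were Ndufa1, a small membrane subunit of complex I (304 and 294 against 133 and 152, log2 0.76 ± 0.14, adjusted p = 0.00022), Cox6a2, Ndufaf5, an assembly factor (0.68 ± 0.25), Ndufa4 (1271 and 1232 against 785 and 799, 0.34 ± 0.13, adjusted p = 0.039) and Atp5md, a small subunit of complex V (0.33 ± 0.13, adjusted p = 0.037). The calls for Ndufa4 and Atp5md were lost when doublets were kept and cells were clustered anew, with values of -0.07 and -0.11. The neuron-like class then held 957 and 523 cells, instead of 387 and 261, with 14.1% and 17.5% mitochondrial UMIs. Doublets numbered 96 and 159, so most of the added cells were not doublets, and no shallow cluster was named oligodendrocyte-like. The settings thus differ in class membership beyond the doublets themselves. Of the mitochondrial members 4 were higher (mt-Cytb, mt-Nd1, mt-Nd3 and mt-Nd4) and mt-Nd6 lower, but without cells of at least 20% mitochondrial UMIs 1 was higher and 4 lower, with a median of -0.26 instead of 0.13.

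Among the 8 assembly factors of complex I, 4 are named for their changes by class. Ndufaf2, which takes the place of the subunit Ndufa12 during assembly, was at 88.2 and 101 CPM in oligodendrocyte-like and 104 and 109 in OPC-like cells and at 12 to 69.2 in the other 7 classes. Its log2 fold change was 1.58 ± 0.12 in oligodendrocyte-like (adjusted p = 7.4e-09) and 0.91 ± 0.14 in OPC-like cells (adjusted p = 4.1e-05), under all 4 scalings. Ndufa12 had its highest levels in astrocyte-like cells, 376 and 376 CPM, with a log2 fold change of 1.09 ± 0.09 there and 0.00 ± 0.10 in oligodendrocyte-like cells (-0.51 with library sizes alone, called lower). Ndufaf4 was at 135 and 125 in neuron-like and 121 and 131 in astrocyte-like cells against 19.1 and 21.5 in macrophage-like cells, with log2 fold changes of 0.88 ± 0.13, 1.18 ± 0.11 and -1.51 ± 0.26. Ndufaf6 was at 3.17 and 3.38 in oligodendrocyte-like cells, its lowest class (log2 -1.48 ± 0.20, adjusted p = 7.9e-06), and at 20.7 and 18.0 in neuroblast-like cells. Ndufaf5 was at 34.5 and 28.4 in neuron-like cells (1.07 ± 0.21, adjusted p = 0.00030) and at 6.00 and 3.84 in microglia-like cells (-1.04 ± 0.21).

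The largest remaining changes were spread over the complexes. In endothelial-like cells the accessory complex I subunit Ndufa7 was at 507 and 663 CPM (log2 0.82 ± 0.09, adjusted p = 1.8e-06) and Cox8a, the common form of a small complex IV subunit, at 642 and 624 (-0.74 ± 0.12, adjusted p = 8.3e-05). In macrophage-like cells Ndufs1, the largest iron-sulfur subunit of complex I, was at 26.0 and 31.1 (-1.08 ± 0.23, adjusted p = 0.0016). In neuroblast-like cells Atp5o, which links the head and the stalk of complex V, was at 449 and 439 (0.67 ± 0.08, adjusted p = 4.0e-06). In oligodendrocyte-like cells Ndufa3 and Ndufs7, both of complex I, rose by 1.10 ± 0.09 and 0.94 ± 0.10, and both were called higher under all 4 scalings.

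The other genes of the pathway formed a list of 49 with 23 assembly factors, 12 transcription and biogenesis factors, 6 carriers and channels, 6 regulators and 2 genes of cytochrome c and the core of complex III, and the list was tested in the same fit. In astrocyte-like cells 19 were higher and 5 lower (21 and 5 with library sizes alone), beside 26.7% and 26.4% of all genes (27.9% and 24.8%), with a median log2 fold change of 0.16 against -0.10 over all genes. The largest rises there were Ppargc1a, a coactivator of mitochondrial biogenesis (log2 4.26 ± 0.17, adjusted p = 2.1e-12), and Chchd10, a protein of the cristae (3.34 ± 0.12). Esrrg, a nuclear receptor, was called in astrocyte-like and neuron-like cells (adjusted p = 0.0089 and 0.00020) on 6 and 6 and on 9 and 5 UMIs, and no fold is given because endothelial-like, macrophage-like and mural-like cells had 0 UMIs. The largest falls were Ucp2, an uncoupling protein (-1.26 ± 0.38), Sco1, a copper chaperone (-1.16 ± 0.36, on 7 and 12 UMIs), and Atpif1, the inhibitor of complex V (-0.99 ± 0.12). As a share of UMIs on nuclear genes, Ucp2 stood above neuroblast-like, OPC-like and oligodendrocyte-like cells in both libraries, so astrocyte-like cells were not its lowest class. Microglia-like cells had 4411 and 1589 Ucp2 UMIs and endothelial-like cells 2200 and 776, against 65 and 115 in astrocyte-like cells. In neuron-like cells 9 were higher and 13 lower, beside 26.2% and 29.4% of all genes, and 19 and 7 with library sizes alone, beside 33.8% and 18.4%, so that the counts lay near or below the background. Higher under both were Ppargc1b (3.66 ± 0.32) and Chchd10 (2.66 ± 0.13), and lower under both were Ucp2 (-2.11 ± 0.47), Gabpa, an ETS factor (-1.13 ± 0.20), and Sdhaf1, an assembly factor of complex II (-0.90 ± 0.20). Ucp2 rested on 47 and 5 UMIs in neuron-like cells and stood above its oligodendrocyte-like level in both libraries.

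In mural-like cells 7 of the 49 were higher and 7 lower (10 and 4 with library sizes alone), beside 22.3% and 17.1% of all genes (25.4% and 13%), which does not set the list apart. Higd1b, of a family of small proteins found with complex IV, rose by 7.88 ± 0.26 on the log2 scale (adjusted p = 1.5e-13), close to the value for Ndufa4l2, and Ppargc1b rose by 3.49 ± 0.32 and Ucp2 by 1.5 ± 0.30. As a share of UMIs on nuclear genes, Ucp2 stood higher in endothelial-like, microglia-like and macrophage-like cells than in mural-like cells in both libraries. Sco2, a copper chaperone for complex IV (-1.32 ± 0.23), Ppargc1a (-1.16 ± 0.44, adjusted p = 0.047, and 0.067 with library sizes alone) and Sdhaf3 (-0.89 ± 0.26) were the largest falls. They rested on few mural-like UMIs: 21 and 16 for Sco2, 9 and 4 for Ppargc1a and 14 and 18 for Sdhaf3. Cyc1, the cytochrome c1 of complex III, rose by 0.94 ± 0.08 in astrocyte-like cells.

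The study divided astrocytes by Crym, which encodes mu-crystallin. Of the astrocyte-like cells, 498 and 434 were Crym+ and 805 and 542 Crym-. The mitochondrial members took 7.0% and 8.06% of UMIs in Crym+ cells and 8.52% and 10.4% in Crym- cells, and median UMI totals were 2462 and 5239.5 against 1474 and 1967. Of 6044 genes tested in edgeR, no nuclear member of 84 was called, beside 1.24% of all genes higher and 1.99% lower (3.23% in all). DESeq2 called 0 as well, while 35 had an unadjusted edgeR p under 0.05 and the median log2 fold change was 0.18 against 0.00 over all genes. With library sizes alone 2 were higher (beside 2.50% of all genes, with 3.33% lower), and 21 when all genes were tested. No share of all genes was counted beside the 35 or the 21, so these counts are not read as a rise. Of the mitochondrial members 11 of 13 were lower, with log2 values from -0.33 for mt-Co2 to -0.51 for mt-Nd1, mt-Co1 and mt-Nd6 being the exceptions. DESeq2 called 8 of them. With 426 and 353 cells of each group matched for UMI totals 2 were lower, with cells under 20% mitochondrial UMIs 3, and without the library block 0.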

How the data were processed

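Single-cell RNA was counted in 2 striatal libraries. The authors deposited untransformed UMI counts for each gene and barcode, from Cell Ranger on mm10, version 4.0 per the labels, while the paper names an earlier one. How reads shared with pseudogenes were counted is not given in the sources used here, so single members may be uncertain. Classes were rebuilt here and can differ from those of the study.

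Cells with at least 300 genes were kept, doublets were removed with Scrublet (scanpy 1.11.5, python 3.11.15, expected rate 6%), and Seurat 5.3.0 (R 4.3.3) integrated the libraries and clustered cells on 2000 variable genes and 30 components at resolution 0.08. The clustering left out 157 genes: the 107 members, 49 pathway genes and Crym. A cluster was named when at least 3 markers were raised 2-fold and at least 1 was among its 50 leading genes, thresholds chosen after the counts had been examined. Members and lists were chosen with earlier results of these data known.

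Counts summed per library and class were tested with edgeR 4.0.16 (TMM, filterByExpr, quasi-likelihood, library as block, Benjamini-Hochberg over all genes tested). All classes of a library come from 1 suspension, which pairs them by library. The SE of a log2 fold change was derived from that test, as its absolute value divided by the square root of the F statistic. DESeq2 1.42.0 was an alternative. A cell was Crym+ above 0.25 on the natural log scale of UMIs per 10000, and genes seen in 10% or more of Crym+ or of Crym- cells entered the test. In simulated counts 100 genes were changed by each fold and the groups were otherwise alike. The class fit recovered 14% of 1.5-fold and 47% of 2-fold changes in neuron-like cells among 15534 genes, with 0 false calls. The Crym fit recovered 53% and 98% among 6044 genes, with 6 false calls. In the data 55.6% of all genes were called in neuron-like cells, so the recovered shares do not give the power of the class tests.

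Levels (CPM) are UMIs per 1000000 UMIs on nuclear genes, since mitochondrial UMIs take part of the total. The protocol counts 3' ends, so levels carry no length term and were compared between classes. Intervals are exact at 95% and cover counting error only. Depth per class and library ran from 440869 to 14056813 UMIs. Named genes were the 13 mitochondrial members, the isoform families and Sdha to Sdhd, up to 3 largest rises and falls per comparison that agreed in sign in both libraries (5 for neuron-like against astrocyte-like and for Crym), and pathway genes by the same rule for 3 classes. Ndufa12 and Cyc1 were added after their values were seen. Gene positions and overlaps are from GENCODE (GRCm38).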

Additional observations from a re-analysis of the deposited data

How the results depend on the processing

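Each alternative changed 1 choice. Except with library sizes alone, the counts of called members under the alternatives below have no share of all genes to set beside them. The Crym threshold, the number of components and of variable genes, the doublet rate and the naming thresholds were not varied. Of 239 values of single named genes 189 were called, and 72 of these lost the call under at least 1 alternative while keeping their sign. A loss of the call together with a change of sign was not counted in the 72. In 20 of the 239 values the sign changed under at least 1 alternative, counted where the main or the alternative value was called. Some of these 20 were thus not called in the main fit. The cause of each change below was not tested, except that library sizes alone shift all genes of a class together.

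With library sizes alone the nuclear members called came to 2 for Crym+ against Crym- (0 with TMM), 48 in neuroblast-like (28) and 61 in OPC-like cells (25), and the mitochondrial ones to 12 in microglia-like (3), 6 in mural-like (3), 6 in neuroblast-like (12) cells and 10 for neuron-like against astrocyte-like cells (5). The nuclear median became 0.16 in neuron-like, 0.38 in OPC-like and -0.16 in oligodendrocyte-like cells. In microglia-like cells Sdha was -0.17, Sdhb -0.28, Sdhc -0.13, Sdhd -0.0626, mt-Nd1 -0.27, mt-Nd2 -0.35 and mt-Nd4 -0.39, and in oligodendrocyte-like cells mt-Nd2 was -0.18 and mt-Nd5 -0.33.

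DESeq2 called 45 nuclear members in neuroblast-like cells, and 11 mitochondrial ones in microglia-like cells, 7 in mural-like cells and 10 for neuron-like against astrocyte-like cells. Its nuclear median in neuron-like cells was 0.12, and in microglia-like cells Sdha was -0.0101, mt-Nd2 -0.19 and mt-Nd4 -0.24. Testing all genes gave 21 nuclear members for Crym, 5 mitochondrial ones in microglia-like and 6 in neuroblast-like cells, and a nuclear median of 0.0031 in OPC-like cells.

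With cells under 20% mitochondrial UMIs the mitochondrial members called were 3 for Crym, 2 in macrophage-like (7 in the full set), 5 in mural-like and 5 in neuron-like cells (12), and the neuron-like against astrocyte-like median was -0.26. In neuron-like cells mt-Atp8 was -0.0184 and mt-Co1 -0.0408, and against astrocyte-like cells mt-Cytb was -0.0265, mt-Nd3 -0.0683 and mt-Nd4 -0.11. The summed mitochondrial share of neuron-like cells was 7.57% and the nuclear one of astrocyte-like cells 3.09%. The median over astrocyte-like cells was 2.77%.

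Cells were clustered anew with doublets kept, which gave 957 and 523 neuron-like cells and no shallow cluster named oligodendrocyte-like. With doublets kept the counts were 5 mitochondrial members in microglia-like, 7 in oligodendrocyte-like (12) and 12 for neuron-like against astrocyte-like cells, and 43 nuclear ones in OPC-like cells. Against astrocyte-like cells Atp5md was -0.11, Ndufa4 -0.0732, mt-Atp8 0.45, mt-Co1 0.53, mt-Nd4l 0.40 and mt-Nd6 0.17, the neuron-like mitochondrial share was 15.8%, and mt-Nd2 in oligodendrocyte-like cells was -0.17. At resolution 0.32 the mitochondrial members called were 4 in macrophage-like and 6 in mural-like cells, and Cox4i2 held 34.5% and Ndufa4l2 65.6% of their pairs in mural-like cells. Leaving out the shallow oligodendrocyte-like cluster, an alternative chosen after seeing the data, gave 5 mitochondrial members in mural-like cells and -0.0055 for mt-Nd2 in oligodendrocyte-like cells. Matching UMI totals gave 2 mitochondrial members for Crym.

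Without the replicate block, which pairs the classes of a library, the mitochondrial members called were 0 for Crym (11 with the block), 2 in macrophage-like, 0 in microglia-like, 1 in mural-like and 5 in neuroblast-like cells and 1 for neuron-like against astrocyte-like cells, and the nuclear ones 16 in OPC-like cells. With 1 library left out no degrees of freedom remained, so only values could be had: the nuclear median in OPC-like cells was -0.0626 to 0.0171, against -0.0126 with both.

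The limits are 2 libraries, classes of unequal depth and 3' counts. In simulated counts, with classes alike apart from the changed genes, 47% of 2-fold changes in neuron-like cells were recovered. The classes in the data differed in far more genes, so this share does not carry over to them. Macrophage-like cells had the fewest summed UMIs of the 9 classes compared.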
